A study of Mus musculus with 4 samples.

Results

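Regulatory T cells are CD4+ T cells that hold the transcription factor Foxp3 and restrain other T cells, and those inside tumors take part in keeping antitumor responses down. Here, the dividing fraction of these cells was described among tumor-infiltrating lymphocytes (TILs) of mouse B16 melanoma. A cell was taken when it held at least 600 detected genes, under 30% mitochondrial UMIs (unique molecular identifiers, 1 per captured RNA molecule), at least 1 Foxp3 UMI, at least 1 Cd4 UMI and at least 2 UMIs of Mki67 and Top2a together. This rule found 587 dividing cells of 20170 cells in all, 415 in the WT library and 172 in the VISTA-KO library. Their counterparts were 1655 non-dividing Foxp3+ Cd4+ cells with 0 UMIs of Mki67 and Top2a, 833 in WT and 822 in VISTA-KO. A further 556 Foxp3+ Cd4+ cells held exactly 1 such UMI and were placed in neither group. Members were thus chosen by their UMIs of Foxp3, Cd4, Mki67 and Top2a. The genes used, and every other gene compared between dividing and non-dividing cells, are given as a description with no test.

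The VISTA-KO library came from Vsir fl/fl mice carrying CD4-Cre, and the WT library from Vsir fl/fl littermates without Cre. CD4-Cre acts in developing T cells, so both CD4+ and CD8+ T cells of the knockout lose the floxed gene for VISTA, an inhibitory checkpoint receptor, while other cells of the host keep it. Both groups bore B16 tumors, received a peptide vaccine with CpG and R848 on day 3 and antibody to CTLA-4 at 100 µg on days 4 and 8, all counted from inoculation. CD4+ and CD8+ TILs were sorted from tumors taken 18 days after treatment and pooled within a genotype. There was 1 library for each genotype, with no replicate, so no value below has a p-value. All intervals are exact 95% intervals that cover counting error only, and a difference between the libraries cannot be told apart from a difference between 2 pools of tumors.

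A T cell that divides passes through S phase, in which the replicative helicase and polymerases copy the DNA, and then through G2 and mitosis, in which cyclin-dependent kinases, kinesins and the chromosomal passenger complex separate the copies. Mki67 encodes the Ki-67 protein that coats mitotic chromosomes, and Top2a encodes the topoisomerase that untangles sister DNA. Both are transcribed mostly in late S phase, G2 and mitosis, so early S-phase cells and shallowly sequenced cells can be missed by the rule. Regulatory T cells are known to divide in tissues when they see antigen and interleukin-2, and are kept quiet by factors such as Klf2. On GRCm38.p6, Foxp3 lies at chrX:7579676-7595243, Mki67 at chr7:135689784-135716450, Top2a at chr11:98992947-99024199 and Cd4 at chr6:124864693-124888247.

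The depth of the cells moved with the rule. The median dividing cell held 18280 UMIs in WT and 11943 in VISTA-KO, against 6241 and 5160.5 UMIs in the non-dividing cells. The libraries held 72098984 UMIs over 10337 barcodes in WT and 59916814 UMIs over 10085 barcodes in VISTA-KO. The libraries shared 145 barcodes, which included 8 dividing cells of WT and 3 of VISTA-KO.

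The RNA of these cells went against the label of regulatory T cells for a large part of the set. CD4+ regulatory T cells should hold little RNA of Cd8a or Cd8b1, which encode the chains of the CD8 coreceptor. Yet 254 of 415 dividing cells of WT (61.2%) and 57 of 172 of VISTA-KO (33.1%) held at least 2 Cd8a and Cd8b1 UMIs. In the non-dividing cells, the shares were 30.01% (250 of 833) and 13.1% (108 of 822). The Cd8 RNA was not a trace, since 165 dividing cells of WT held at least 20 such UMIs, 17 held 2 to 4, and 112 held none. In VISTA-KO, 28 dividing cells held at least 20 such UMIs, 7 held 2 to 4, and 94 held none.

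**Figure D1:**
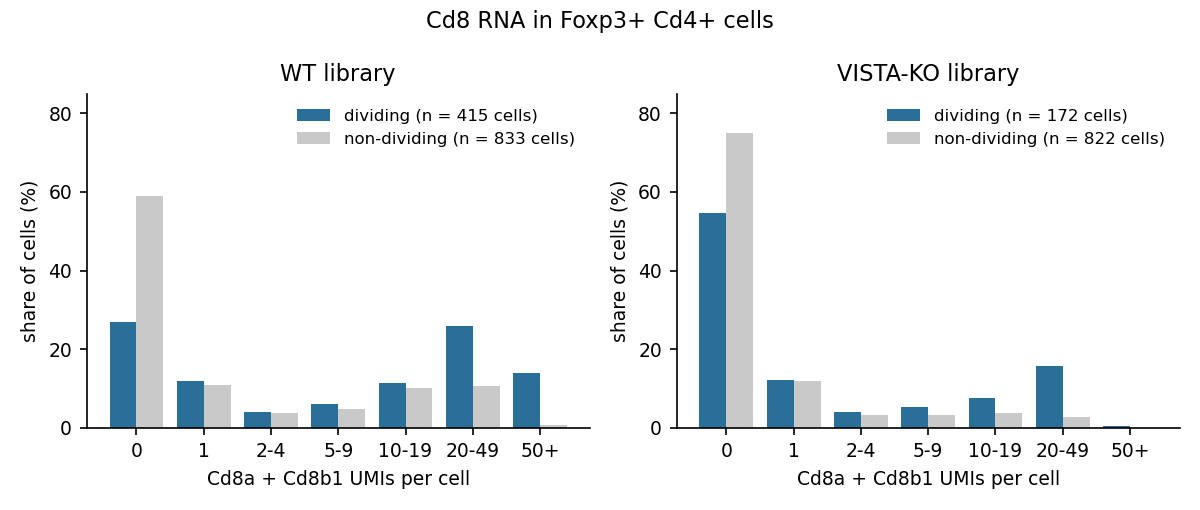
Share of Foxp3+ Cd4+ cells (%, bars) by the number of Cd8a and Cd8b1 UMIs per cell (x axis, binned), for dividing cells (blue) and non-dividing cells (grey) of each library. In WT the dividing cells form a second peak at high Cd8 counts, with 165 of 415 cells at 20 UMIs or more, while 112 hold none; VISTA-KO has 28 of 172 such cells and 94 with none.

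The Cd8-marked dividing cells differed from the others in several further readouts. Their median UMI count was 24062 in WT and 18692 in VISTA-KO, above the 13573 and 8219 UMIs of the dividing cells defined as single-lineage below. A productive T cell receptor beta chain was assembled for 7.48% of the Cd8-marked dividing cells in WT and for 43.9% in VISTA-KO, against 74.3% and 81.0% of single-lineage dividing cells. Foxp3 stood at 290 CPM, the usual scaling of a gene's UMIs to all UMIs summed over a group, in the Cd8-marked dividing cells of WT and 239 CPM in those of VISTA-KO. The V gene of the largest CD8+ clonotype of WT (Trbv12-2, carried by a clonotype of 1039 cells) stood at 215.6 CPM in Cd8-marked and 20.5 CPM in single-lineage dividing cells. In VISTA-KO, the V gene of the largest CD8+ clonotype (Trbv13-1, 292 cells) stood at 341 and 60.6 CPM. No doublet caller was run, and the part of barcodes with more than 1 cell in these values was not tested.

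Other lineages were also seen in some dividing cells. Summed over 10 macrophage markers, the dividing cells held 371 and 353 CPM in WT and VISTA-KO, with Tyrobp the most abundant in WT, against 447 and 176 CPM in non-dividing cells. At least 5 macrophage-marker UMIs were found in 54 dividing cells of WT and 8 of VISTA-KO. The 10 melanoma markers summed to 12.0 and 936 CPM in WT and VISTA-KO, and in VISTA-KO 2 cells reached at least 5 such UMIs. At least 2 productive beta chains, which 1 T cell rarely makes, were assembled in 18 dividing cells of WT (4.34%) and 20 of VISTA-KO (11.6%). In non-dividing cells, the counts were 79 (9.48%) and 90 (10.9%). Any beta chain was assembled for 141 of the 415 dividing cells of WT and 120 of the 172 of VISTA-KO. Most dividing cells of WT could thus not show 2 chains. Foxp3 RNA was also counted in cells with at least 3 UMIs of Siglech, a receptor of plasmacytoid dendritic cells. Of these Siglech cells, 18.3% in WT and 9.56% in VISTA-KO held a Foxp3 UMI, at medians of 9161 and 9485.5 UMIs per cell. However, 75.3% of them in WT and 69.9% in VISTA-KO held at least 2 Cd8a and Cd8b1 UMIs. A beta chain was assembled for 18.7% and 17.6%. The Siglech cells were thus mixed themselves, and their share with Foxp3 is not a background level of cells that lack it. Of the dividing cells, 29 in WT and 28 in VISTA-KO rested on exactly 1 Foxp3 UMI, and 121 and 52 on exactly 1 Cd4 UMI.

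For this reason, the main results are given for all dividing Foxp3+ Cd4+ cells and for single-lineage cells, a subset defined after these values were seen. Single-lineage cells held under 2 Cd8a and Cd8b1 UMIs, under 2 productive beta chains and under 5 UMIs of the macrophage, melanoma and B or plasmacytoid dendritic cell markers, with the interferon-induced Bst2 left out. They numbered 140 dividing and 518 non-dividing cells in WT, and 105 and 640 cells in VISTA-KO. Their macrophage markers summed to 10.0 and 18.6 CPM in WT and VISTA-KO in the dividing cells, with 4 and 3 of the 10 markers at 0. Their melanoma markers summed to 12.0 and 9.32 CPM. Since the subset was cut on these markers, their low levels there are a result of the cut. The 10 CD8 T cell markers still summed to 1596 and 2888 CPM in them, with Ccl5, a chemokine that other T cells also make, the most abundant in WT.

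In single-lineage dividing cells, Foxp3 stood at 498 CPM (468 to 530) in WT and, in VISTA-KO, 529 CPM (487 to 575). These levels lay below the 908 and 849 CPM of single-lineage non-dividing cells of the same libraries. Non-dividing single-lineage cells drawn for like depth held 756 and 683 CPM of Foxp3, with median depths of 8166 UMIs against 13573 in the dividing cells of WT and 8161 against 8219 in those of VISTA-KO. Over all members, Foxp3 stood at 345 CPM (333 to 358) in WT and, in VISTA-KO, 374 CPM (349 to 399), against 642 and 717 CPM in non-dividing cells. Among the 10 genes of conventional CD4 T cells, Ifng was the most abundant in WT and Tnf in VISTA-KO, and the list summed to 86.6 and 322 CPM in WT and VISTA-KO in the single-lineage dividing cells. The non-dividing cells held 154 and 201 CPM of the same list. In dividing cells of VISTA-KO, most UMIs of Tnf and of Il17a, another gene of this list, lay in single cells, as given below. The rank of Tnf and the sum of the list in VISTA-KO therefore rest in part on single cells.

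The rule counts 2 genes, which did not always go together. Both Mki67 and Top2a were found in 276 of the 415 dividing cells of WT (66.5%) and in 103 of the 172 of VISTA-KO (59.9%). The lowest passing count of exactly 2 UMIs was held by 136 cells of WT and 66 of VISTA-KO, while 138 and 39 cells held 10 or more, and the highest counts were 115 and 63 UMIs. The sums of the cycle lists in single-lineage cells were compared on either side of the threshold. Cells with 1 Mki67 or Top2a UMI, just outside, held 1042 CPM of 40 S-phase genes and 705 CPM of 40 mitosis genes in WT, and 1016 and 632 CPM in VISTA-KO. Cells with 2 UMIs, just inside, held 2035 and 1091 CPM in WT, and 1558 and 579 CPM in VISTA-KO. Non-dividing cells, with 0 UMIs, held 584 CPM of the mitosis genes in WT and 585 CPM in VISTA-KO. In VISTA-KO, the mitosis level at 2 UMIs was thus no higher than at 0. Cells with 10 or more UMIs held 5829 and 7665 CPM in WT (46 cells), and 6816 and 7384 CPM in VISTA-KO (16 cells). Foxp3 stood at 908 CPM at 0 UMIs and at 438 CPM at 10 or more in WT, and at 849 and 453 CPM in VISTA-KO, where its lowest value was 304 CPM at 5 to 9 UMIs. Foxp3 is part of the rule, every cell holds at least 1 UMI of it, and the median depth of the same classes was 4542.5 and 19364.5 UMIs in WT and 4542.5 and 13564.5 UMIs in VISTA-KO, so these levels are a description.

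The share of Foxp3+ Cd4+ cells that met the rule was higher in the WT library than in the VISTA-KO library. It was 27.2% (24.9 to 29.5) of 1528 cells in WT and 13.5% (11.7 to 15.5) of 1270 cells in VISTA-KO. Shares were also counted at 1 depth and in single-lineage cells. A beta chain was assembled for 74.3% of single-lineage dividing cells in WT and 81.0% in VISTA-KO. The others could not show 2 chains, so mixed cells may remain. With each cell thinned to 4000 UMIs, which left out 271 cells of WT (17.7%) and 316 of VISTA-KO (24.9%), the shares were 13.9% (12.1 to 16.0) and 7.97% (6.33 to 9.87). In single-lineage cells they were 17.4% (14.8 to 20.2) and 11.3% (9.32 to 13.5), and after thinning these to 4000 UMIs, 13.2% (10.5 to 16.3) and 7.09% (5.22 to 9.37). In the last comparison, 252 cells of WT (31.3%) and 296 of VISTA-KO (31.8%) were too shallow to be counted. In each of these settings the WT share was the higher and the counting intervals did not overlap.

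The same count was made in the other T cells of both libraries. Cd4+ cells without a Foxp3 or Cd8 UMI were dividing in 6.005% (3.96 to 8.67) of 433 cells in WT and 5.70% (4.46 to 7.16) of 1210 cells in VISTA-KO after thinning to 4000 UMIs. Cd8-positive cells without Foxp3 or Cd4 UMIs were dividing in 8.91% (7.97 to 9.92) of 3368 cells in WT and 10.3% (9.23 to 11.5) of 2930 cells in VISTA-KO. Their intervals overlapped between the libraries at this depth, unlike those of the Foxp3+ Cd4+ cells thinned to 4000 UMIs. Without thinning, the shares of Cd8-positive cells were 11.1% (10.2 to 12.0) of 5010 and 13.1% (12.05 to 14.2) of 4023 cells, higher in VISTA-KO, with intervals that did not overlap. At 2000 UMIs per cell, the intervals of the Foxp3+ Cd4+ cells overlapped too, with shares of 4.55% (2.87 to 6.80) of 484 cells and 2.96% (1.70 to 4.77) of 540. Foxp3 and Cd4 UMIs were required again after this thinning, unlike at 4000 UMIs. The 2 depths thus differ in their cells as well. In the Siglech cells, the shares at 4000 UMIs were 1.44% and 1.49%. With 1 pool of tumors for each genotype, the spread of these shares between mice is not known.

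**Figure D2:**
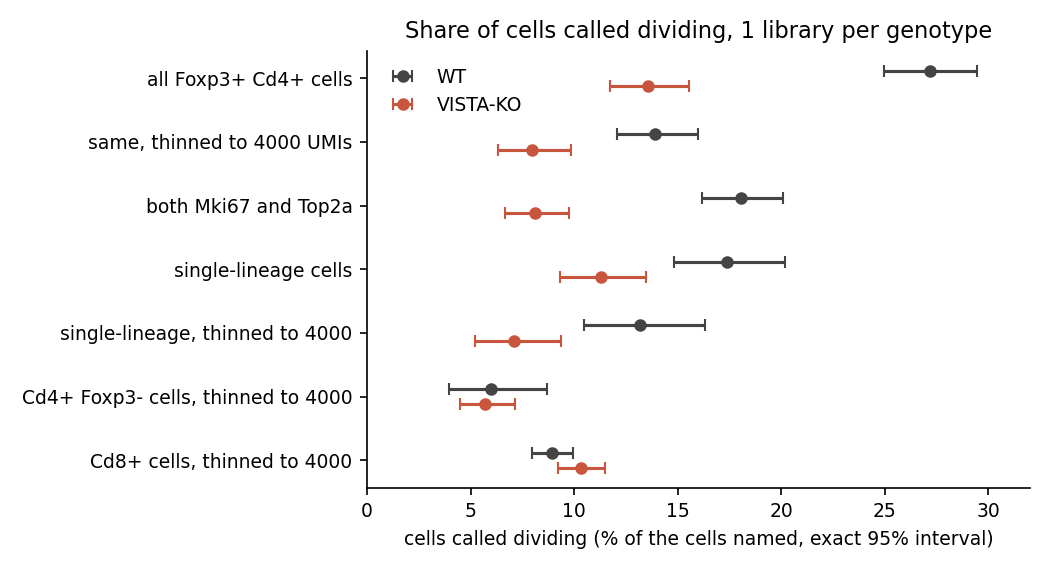
Share of cells called dividing (%, x axis) in each class of cells (rows), in the WT library (black) and the VISTA-KO library (orange), with exact 95% binomial intervals for counting error. Each row of Foxp3+ Cd4+ cells lies higher in WT, from 27.2% against 13.5% for all cells to 13.2% against 7.09% for thinned single-lineage cells, while the intervals of thinned Foxp3- Cd4+ and thinned Cd8+ cells overlap.

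Outside the genes of the rule, dividing cells carried higher levels of the machinery of DNA replication and mitosis. Over all members, 6199 genes reached 20 CPM in at least 1 group, and 175 of them (2.82%) were at least 2-fold higher in the dividing cells of both libraries, while 1 (0.0161%) was at least 2-fold lower. These folds, given as log2 ratios after adding 5 CPM to each level, follow from how the cells were chosen, and nothing is read from the counts. In single-lineage cells, 210 of 6147 genes (3.42%) were higher and 14 (0.228%) were lower. Of the higher genes, 163 were common to both sets of cells, and none of the lower genes were.

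The genes of S phase were the first group. Of 33 measured members of the list of 40, 29 were at least 2-fold higher over all members (32 of 35 in single-lineage cells), with median log2 ratios of 1.71 in WT and 2.02 in VISTA-KO, against medians of -0.06 and -0.03 over all genes. Pclaf, which encodes a partner of the replication clamp, had the largest mean ratio of all genes but Mki67 and Top2a, which the rule used, although it was on no cycle list: it stood at 321 CPM in dividing and 8.26 CPM in non-dividing cells of WT, and in VISTA-KO at 314 and 8.74 CPM. Its dividing level was 38.9 times (29.7 to 51.9) the non-dividing one in WT, and 36.0 times (26.5 to 49.9) in VISTA-KO. Rrm2, the regulated subunit of ribonucleotide reductase, stood at 145 against 6.12 CPM in WT and 185 against 6.36 CPM in VISTA-KO. Clspn, which links stalled forks to the checkpoint kinase, stood at 58.3 against 2.45 CPM in WT and 74.6 against 1.39 CPM in VISTA-KO. Mcm5, a subunit of the replicative helicase, stood at 136 against 24.6 CPM in WT and 146 against 19.3 CPM in VISTA-KO. Pcna, the replication clamp, had a smaller difference, at 149.8 against 58.9 CPM in WT and 177 against 53.2 CPM in VISTA-KO.

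The genes of G2 and mitosis moved further. Of 32 measured members of that list of 40, 30 were at least 2-fold higher over all members, with medians of 2.83 in WT and 2.68 in VISTA-KO. The exceptions were Pttg1, which encodes securin, and Smc4, a subunit of condensin. Ccna2, the cyclin of S phase and G2, stood at 135 against 1.99 CPM in WT and 116 against 1.99 CPM in VISTA-KO. Birc5, which encodes survivin of the chromosomal passenger complex, stood at 221 against 5.05 CPM in WT and 199 against 10.7 CPM in VISTA-KO. Cdk1, the kinase that drives entry into mitosis, stood at 93.7 against 3.37 CPM in WT and 83.2 against 2.58 CPM in VISTA-KO. Ube2c, a ubiquitin-conjugating enzyme of the anaphase-promoting complex, stood at 276 against 20.04 CPM in WT and 189.6 against 15.9 CPM in VISTA-KO. Cenpf, Tpx2, Nusap1 and Spc24, which act at the kinetochore or the spindle, were also among the 15 genes with the highest ratios. In single-lineage cells, 26 of 28 measured members were higher, with medians of 3.41 in WT and 2.55 in VISTA-KO, so the library difference was larger there than over all members.

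Off the cell cycle lists, the 15 highest ratios included Pclaf and Spc24. Among the others were the histone genes Hist1h2ae, Hist1h1b and Hist1h2ab, the histone chaperone Asf1b, the cohesin acetyltransferase Esco2 and the condensin subunit Ncaph, and also Cdca8 of the chromosomal passenger complex, Knl1 of the kinetochore, the kinase subunit Cks1b, the inhibitor of the anaphase-promoting complex Fbxo5, the mitotic entry gene Cdca3 and the spindle pole gene Aspm. Histone genes lie in clusters of near-identical copies, so the counts of single members are uncertain. Hist1h2ae stood at 218 against 14.4 CPM in WT and 188 against 11.7 CPM in VISTA-KO. The list of cytoskeleton and chromatin genes of dividing cells had 12 of 20 members higher, with medians of 1.29 and 1.22. Stmn1, which destabilises microtubules, stood at 437 against 40.7 CPM in WT and 475 against 26.0 CPM in VISTA-KO. Tubb5, a beta tubulin, stood at 1087 against 332 CPM and at 1058 against 347 CPM.

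Growth genes differed less. Of 23 measured genes of ribosome biogenesis and MYC targets, 2 were at least 2-fold higher over all members, namely Ran and Ranbp1 of nuclear transport, with list medians of 0.61 in WT and 0.54 in VISTA-KO. In single-lineage cells, 7 of 22 were higher, with medians of 1.07 and 0.63. Glycolysis genes had medians of 0.13 and 0.33 over all members and 0.21 and 0.23 in single-lineage cells, and respiratory chain genes 0.23 and 0.35 and then 0.32 and 0.30, with none past 2-fold in both libraries in either set. Of 11 epigenetic regulators, 2 were higher in either set, with the values below taken over all members. They were Dnmt1, the maintenance DNA methyltransferase, at 157 against 62.7 CPM in WT and 151 against 61.4 CPM in VISTA-KO, and Ezh2, the methyltransferase of Polycomb, at 109 against 44.2 CPM and 108 against 40.5 CPM.

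The genes of regulatory T cells were the opposite of the cycle genes in sign, though small in size. None of 15 measured identity genes was 2-fold different, and all 15 had a ratio below 0 in both libraries over all members, with medians of -0.44 in WT and -0.52 in VISTA-KO. In single-lineage cells, where 3 of 16 measured identity genes were above 0 in WT and 2 of 16 in VISTA-KO, the medians were -0.34 and -0.25, and against non-dividing cells drawn to be of like depth they were -0.25 and -0.12, so the ratios lay nearer to 0 there. That draw brought the non-dividing medians to 8166 UMIs in WT and 8161 UMIs in VISTA-KO, which reached the 8219 UMIs of the dividing cells only in VISTA-KO. Foxp3 had a ratio of 0.549 (0.509 to 0.590) in single-lineage cells of WT and 0.624 (0.569 to 0.683) in those of VISTA-KO, but it is part of the rule. Ikzf2, which encodes Helios, stood at 507 against 659 CPM in WT and 658 against 683 CPM in VISTA-KO in single-lineage cells. Il2ra, the alpha chain of the interleukin-2 receptor, stood at 224 against 219.6 CPM in WT and 238 against 268 CPM in VISTA-KO.

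Most effector genes of tumor regulatory T cells had ratios below 0, though some were above it. Over all members, 22 of 29 measured members lay below 0 in WT and 20 in VISTA-KO, with medians of -0.36 and -0.24. In single-lineage cells, 22 and 18 of 29 did, with medians of -0.38 and -0.20. None was 2-fold different in both libraries in either set. Ctla4, the checkpoint receptor to which the antibody of the treatment binds, stood at 914 against 1353 CPM in WT and 1095 against 1382 CPM in VISTA-KO in single-lineage cells. Tnfrsf18, which encodes the costimulatory receptor GITR, stood at 798 against 1189 CPM in WT and 775 against 1120 CPM in VISTA-KO in those cells. Il1r2, a decoy receptor of interleukin-1, had the higher level in dividing cells, at 185 against 116 CPM in WT and 104 against 44.6 CPM in VISTA-KO. Lgals1, which encodes galectin-1, was higher too, at 3329 against 2458 CPM and at 2875 against 2005 CPM.

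Most genes of resting T cells were within 2-fold, with medians below 0. The 17 measured quiescence genes of single-lineage cells had medians of -0.79 in WT and -0.45 in VISTA-KO, and 2 of them, Klf2 and Tsc22d3, were at least 2-fold lower in both libraries. Klf2, a transcription factor that holds T cells in quiescence and keeps up the exit receptor S1pr1, stood at 139 against 330 CPM in WT and 338 against 833 CPM in VISTA-KO, with ratios of 0.422 (0.368 to 0.483) and 0.406 (0.363 to 0.453). Tsc22d3, a glucocorticoid-induced regulator, stood at 161 against 364 CPM and at 98.8 against 206 CPM. Both calls were lost against non-dividing single-lineage cells of like depth, where Klf2 had log2 ratios of -0.51 in WT and -1.29 in VISTA-KO, from 201 and 836 CPM in the matched cells, and Tsc22d3 of -0.50 and -0.66. Over all members, neither gene reached a 2-fold difference, and the medians were -0.50 and -0.40.

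Lists of genes that follow signals had medians below 0, with 1 gene past 2-fold in both libraries. Immediate-early genes, which T cells switch on within minutes of antigen receptor signals and also during tissue digestion, had medians of -0.68 in WT and -0.52 in VISTA-KO in single-lineage cells, with 1 of 16, Egr1, past 2-fold in both. Egr1 stood at 23.0 against 135 CPM in WT and 110 against 270 CPM in VISTA-KO. Against cells of like depth its log2 ratios were -1.68 and -0.89, so it was no longer past 2-fold in VISTA-KO. Cish, a target and brake of STAT5, stood at 122 against 199 CPM in WT and 174 against 294 CPM in VISTA-KO over all members, within a list of 15 IL-2 and STAT5 genes whose medians were -0.33 and -0.29. Interferon-stimulated genes had medians of -0.42 and -0.46 over all members and of -0.71 and -0.27 in single-lineage cells, with all 13 measured members below 0 in both libraries and none past 2-fold in both. The 1 gene at least 2-fold lower over all members was Cox6a2, a subunit of cytochrome oxidase, at 12.3 against 41.6 CPM in WT and 6.86 against 29.2 CPM in VISTA-KO. No UMI of it was found in single-lineage dividing cells. Siglech was also among the 15 lowest ratios over all members, so these 15 hold genes of another lineage.

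The promoters of the 2 cycle lists were read for motifs known from such genes, to set the sequences beside the levels. Sequences came from RefSeq on GRCm38.p6, and the 250 bases before each gene's start were searched on both strands, with 32 of the 40 S-phase genes and 34 of the 40 mitosis genes having a window. Octamers of the kind bound by E2F factors (TTTGGCGC, TTTCCCGC, TTTCGCGC or TTTGCCGC) were found in 8 S-phase promoters (25.0%) and 2 mitosis promoters (5.88%). They were found in 4.58% of 4977 promoters of genes tested and in 2.16% of all 27025 genes with a window. The letters TTTGAA, as in the cell cycle homology region of late genes, were found in 11 mitosis promoters (32.4%), in 12.5% of S-phase promoters, in 12.9% of those of genes tested and in 18.3% of all. CCAAT boxes were found in 70.6% of mitosis promoters, 59.4% of S-phase promoters, 40.3% of those of genes tested and 37.5% of all. The 2 together were found in 29.4% of mitosis promoters and 6.09% of those of genes tested. A match is a description of the letters, and binding was not measured. One window of each list is printed below, from 5′ to 3′ on the gene's strand, with the motifs counted for that gene's list in capitals. Motifs of the other list are left in lower case, namely 2 CCAAT boxes in Uhrf1 and the octamer TTTCGCGC in Cdk1.
Uhrf1 (chr17:56304063-56304312, + strand, E2F-type octamer in capitals): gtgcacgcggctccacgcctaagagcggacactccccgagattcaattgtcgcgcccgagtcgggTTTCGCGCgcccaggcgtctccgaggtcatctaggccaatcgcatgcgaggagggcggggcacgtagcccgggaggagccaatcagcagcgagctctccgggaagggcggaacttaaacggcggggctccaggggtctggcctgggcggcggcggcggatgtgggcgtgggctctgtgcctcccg
Cdk1 (chr10:69352913-69353162, - strand, CCAAT on the other strand and TTTGAA in capitals): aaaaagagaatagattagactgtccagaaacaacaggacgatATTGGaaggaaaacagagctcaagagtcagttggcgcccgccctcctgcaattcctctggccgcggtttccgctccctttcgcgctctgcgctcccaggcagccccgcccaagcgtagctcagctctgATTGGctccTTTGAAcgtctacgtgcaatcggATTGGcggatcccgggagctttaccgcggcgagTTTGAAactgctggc
Uhrf1, which recruits the maintenance DNA methyltransferase to copied DNA, stood at 72.4 against 8.72 CPM in dividing and non-dividing cells of WT and at 83.6 against 7.15 CPM in VISTA-KO, over all members.

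The dividing cells were next placed along the cycle, with each cell thinned to 4000 UMIs. Of single-lineage dividing cells, 126 of WT and 85 of VISTA-KO were deep enough, and 14 and 20 were left out. In WT, the mean cell held 14.3 S-phase UMIs (median 9) and 15.6 mitosis UMIs (median 7). In VISTA-KO, the mean cell held 12.6 S-phase UMIs (median 4) and 7.78 mitosis UMIs (median 3). Mitosis UMIs outnumbered S-phase UMIs in 60 cells of WT (47.6%) and in 31 of VISTA-KO (36.5%). Single-lineage non-dividing cells held means of 3.27 and 3.18 S-phase UMIs and of 2.21 and 2.29 mitosis UMIs in WT and VISTA-KO, so the libraries had a like baseline. Their medians were 3 S-phase and 2 mitosis UMIs in both libraries. The median dividing cell of VISTA-KO, with 4 and 3 UMIs, thus lay close to this baseline. Over all members, the means in dividing cells were 12.1 S-phase and 11.3 mitosis UMIs in WT, and 12.9 and 9.28 UMIs in VISTA-KO. Dividing Cd8-positive cells outside the set had the opposite order for mitosis genes, with means of 16.2 UMIs in WT and 18.4 UMIs in VISTA-KO.

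**Figure D3:**
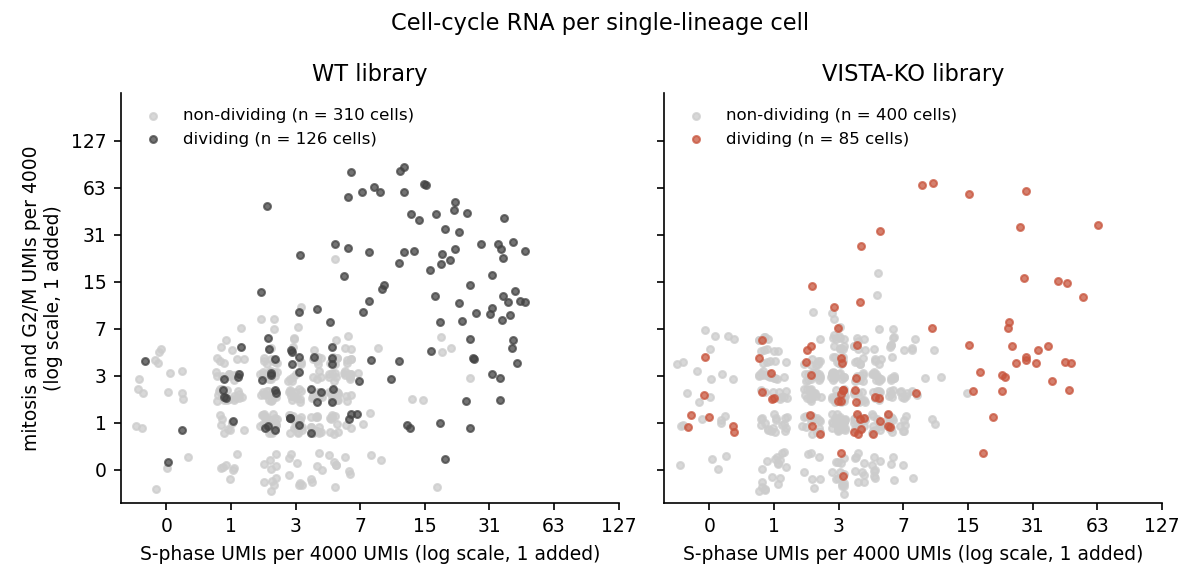
S-phase UMIs (x axis) against mitosis and G2/M UMIs (y axis) of each single-lineage cell thinned to 4000 UMIs, on log scales with 1 added and a small jitter, for dividing cells (dark or orange) and non-dividing cells (grey). The 126 dividing cells of WT reach high mitosis counts more often than the 85 of VISTA-KO, with means of 15.6 and 7.78 UMIs.

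The dividing cells of the 2 genotypes were then compared, with the same ratio in non-dividing cells beside it. Vsir, the targeted gene (chr10:60346851-60430294), stood at 93.8 CPM (87.5 to 100.4) in the dividing cells of WT and 94.8 CPM (82.7 to 108) in those of VISTA-KO. In non-dividing cells it stood at 127.5 and 123 CPM. The reads, which the labels describe as 5′ in one place and as 3′ in another, may lie outside the deleted part, so this level checks neither the deletion nor the labels.

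Among 3384 genes of at least 50 CPM in a library, 75 (2.22%) were at least 1.5-fold higher in VISTA-KO over all members, and 32 (0.946%) were lower. The intervals were not used for these counts. In single-lineage dividing cells, 191 of 3522 (5.42%) were higher and 131 (3.72%) were lower. In non-dividing cells, 74 of 3379 (2.19%) were higher and 51 (1.51%) lower over all members, and 93 (2.73%) and 53 (1.56%) of 3402 in single-lineage cells. UMIs of 1 cell are not independent of each other, so the counting intervals are too narrow where a few cells hold most of a gene's RNA.

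Over all members, some of the largest ratios rested on 1 cell. The 10 highest included Pmel, Dct, Mlana and Tyrp1, pigment genes of melanoma, and 684 of the 794 Pmel UMIs of VISTA-KO lay in 1 cell. Pmel stood at 1.14 and 341 CPM in WT and VISTA-KO over all members, and at 0.501 and 0 CPM in single-lineage cells. The 200 Ccl2 UMIs of VISTA-KO also lay in 1 cell. The 10 lowest included Prf1, Klrc1 and Klrd1, which encode perforin and receptors of cytotoxic cells. Cd8a, outside these 10, stood at 403 and 212 CPM in WT and VISTA-KO. Prf1 stood at 103 and 39.5 CPM over all members, and at 25.5 and 26.1 CPM in single-lineage cells. For these reasons, the single-lineage values are given first below.

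The mitosis genes differed between the libraries. In single-lineage dividing cells, 24 of 27 measured members were at least 1.5-fold lower in VISTA-KO, beside 3.72% of all genes tested. The list median was -1.04 on the log2 scale. With equal weight for each cell, 23 of 26 were lower, with a median of -1.11. Over all members, none of 23 was past 1.5-fold and the median was -0.20. Ube2c stood at 433 and 149 CPM in WT and VISTA-KO, a ratio of 0.345 (0.289 to 0.409). Its RNA was found in 24 of 105 cells of VISTA-KO and 66 of 140 of WT. These cell counts were not adjusted for depth, and the median cell held 8219 UMIs in VISTA-KO and 13573 in WT. Cenpf, which joins kinetochores to microtubules, stood at 153 and 55.0 CPM. Ccna2 stood at 213 and 85.7 CPM, a ratio of 0.403 (0.318 to 0.506). The S-phase list had a median of -0.18, with none of 30 members past 1.5-fold, or of -0.32 with 2 of 23 lower at equal weight, and Mcm5 stood at 190 and 177 CPM, a ratio of 0.931 (0.778 to 1.11). Among cells with 10 or more Mki67 and Top2a UMIs, the mitosis list summed to 7665 CPM in 46 cells of WT and 7384 CPM in 16 cells of VISTA-KO. That class held 46 of 140 and 16 of 105 dividing cells.

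Immediate-early genes were higher in VISTA-KO in dividing and non-dividing cells alike. In single-lineage dividing cells, 12 of 16 were at least 1.5-fold higher and none lower, beside 5.42% higher and 3.72% lower of all genes tested. The list median was 0.87, and 0.73 in non-dividing cells. Over all members, 8 of 16 were higher in dividing cells, beside 2.22% of all genes tested, with medians of 0.55 and 0.64. Nr4a1, a nuclear receptor that rises with antigen receptor signals, stood at 212 and 721 CPM in WT and VISTA-KO in single-lineage dividing cells, a ratio of 3.398 (3.01 to 3.83), and at 289 and 922 CPM in non-dividing cells. Junb, a subunit of the AP-1 factor, stood at 1222 and 2870 CPM in dividing cells, and at 1778 and 4265 CPM in non-dividing cells. Nfkbid, a nuclear regulator of NF-kB, stood at 45.1 and 176 CPM. Jun stood at 188 and 212 CPM, a ratio of 1.13 (0.956 to 1.34), so the rise was not shared by the whole list.

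Interferon-stimulated genes and part of the genes of resting T cells were also higher in VISTA-KO. All 10 measured interferon-stimulated genes were at least 1.5-fold higher in single-lineage dividing cells, beside 5.42% of all genes tested. The list median was 0.71, and 0.41 in non-dividing cells. Over all members, 1 of 10 was higher, beside 2.22% of all genes tested. Isg15, a ubiquitin-like protein, stood at 90.1 and 182 CPM, a ratio of 2.02 (1.64 to 2.48). Of 14 quiescence genes in single-lineage dividing cells, 7 were higher and 2, Tsc22d3 and Txnip, were lower. Of all genes tested there, 5.42% were higher and 3.72% were lower. Klf2 stood at 139 and 338 CPM, with 330 and 833 CPM in non-dividing cells. Ccr7, a chemokine receptor for homing to lymph nodes, stood at 36.1 and 107 CPM in dividing cells, and at 69.0 and 78.3 CPM in non-dividing cells. The difference between dividing and non-dividing cells in these ratios was not tested.

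Genes of regulatory T cell identity were compared next. Of 12 measured identity genes, 1, Lrrc32, was at least 1.5-fold higher and none lower in single-lineage dividing cells, beside 5.42% higher and 3.72% lower of all genes tested, and the list median was 0.14. Lrrc32, which encodes GARP, the surface anchor of latent TGF-beta, stood at 22.0 and 78.3 CPM in WT and VISTA-KO, a ratio of 3.55 (2.44 to 5.24), and at 41.7 and 96.2 CPM in non-dividing cells. Foxp3 had a ratio of 1.06 (0.957 to 1.18), Il2ra of 1.06 (0.905 to 1.24) and Ctla4 of 1.199 (1.11 to 1.29). Of 27 effector genes, 4 were higher and 3 lower, with a median of 0.07. Heat shock genes had 4 of 9 lower and none higher, and Hspa1a stood at 197 and 94.1 CPM.

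Several of the largest single-lineage ratios rested on few cells or were also seen in non-dividing cells. Of the 144 Xcl1 UMIs in single-lineage dividing cells of WT, 140 lay in 1 cell, and of the 78 Il17a UMIs of VISTA-KO, 51 did. Tnf, with 60 of 110 UMIs of VISTA-KO in 1 cell, was also among the 10 highest. Gm42031, an unnamed locus, stood at 190 and 22.4 CPM in WT and VISTA-KO in dividing cells, and at 103 and 11.2 CPM in non-dividing cells. Klf3, a repressor related to Klf2, stood at 12.5 and 58.7 CPM in dividing cells, spread over 14 and 26 cells, and at 17.97 and 55.8 CPM in non-dividing cells. Ms4a4b, a membrane protein of T cells, stood at 186 and 612 CPM in dividing cells and at 339 and 809 CPM in non-dividing cells.

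**Figure D4:**
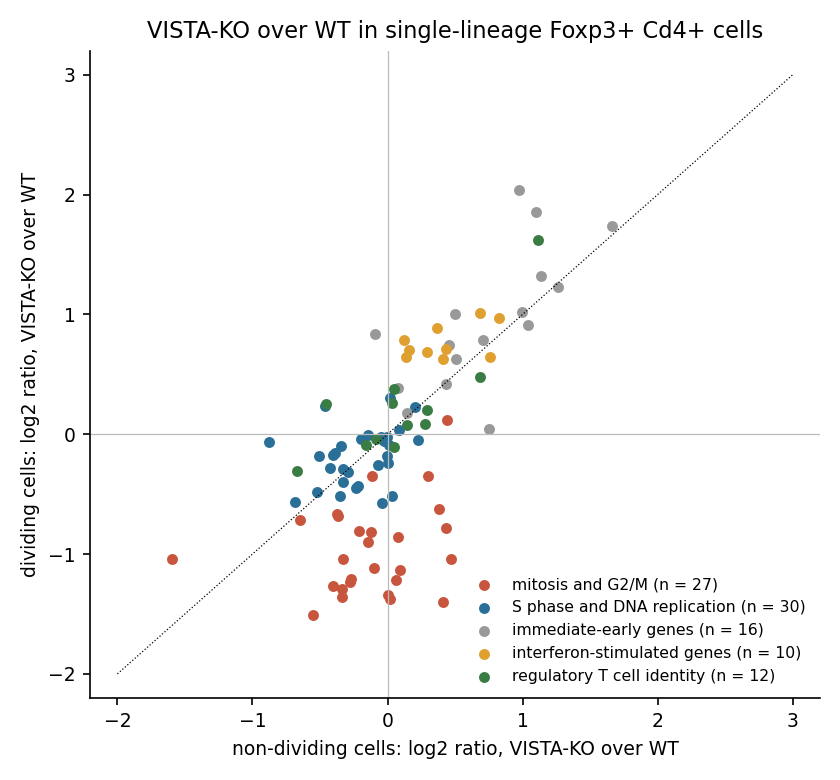
Log2 ratio of VISTA-KO over WT in single-lineage non-dividing cells (x axis) against dividing cells (y axis), each point 1 gene of 5 lists, with a dotted line of equal ratios. Immediate-early and interferon-stimulated genes lie above 0 on both axes (dividing medians 0.87 and 0.71), while mitosis genes lie mostly below 0 in dividing cells (median -1.04) and around 0 in non-dividing cells.

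The T cell receptor was not used by the rule for choosing members, and its sequence shows which cells belong to the same clone. The single-lineage subset did use the number of beta chains, though not their sequences. Paired alpha and beta chains were assembled for 100 single-lineage dividing cells of WT and 85 of VISTA-KO. Of these, 34 of WT (34.0%, 24.8 to 44.2) and 16 of VISTA-KO (18.8%, 11.2 to 28.8) had a clonotype also found in single-lineage non-dividing cells of the same library. Over all members, 43 of 136 cells of WT (31.6%, 23.9 to 40.1) and 17 of 120 of VISTA-KO (14.2%, 8.47 to 21.7) shared a clonotype with any non-dividing cell. The intervals of all members did not overlap between the libraries, while those of single-lineage cells did. Sharing rises with the number of non-dividing cells of the same clonotype, which was not equalised.

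Dividing cells were found in small and large clones alike. A clonotype of at least 2 cells was held by 38.0% (28.5 to 48.3) of single-lineage dividing cells of WT, against 39.2% (34.2 to 44.3) of non-dividing cells, and by 27.1% (17.99 to 37.8) against 21.0% (17.5 to 24.9) in VISTA-KO. By clone size, the share of dividing cells in WT was 18.02% (14.1 to 22.5) in clonotypes of 1 cell, 18 of 120 cells (9.14% to 22.7%) in those of 2 to 4 cells and 17.1% (10.8 to 25.2) in those of 5 or more. In VISTA-KO, the shares were 10.97% (8.52 to 13.8), 16.9% (10.9 to 24.5) and 5.56% (0.141 to 27.3), the last from 1 of 18 cells. Within each library the intervals of the 3 size classes overlapped.

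Sharing with Cd8-positive cells was counted in the same way. With paired chains, 4 of 19 Cd8-marked dividing cells of WT (21.1%, 6.05 to 45.6) had a clonotype of Cd8-positive cells without Foxp3 and Cd4, and 1 of 25 of VISTA-KO did. Among single-lineage dividing cells, 5 of 100 did in WT and 0 of 85 in VISTA-KO, with an interval of up to 4.25%. In WT, the interval of the single-lineage cells (1.64% to 11.3%) overlapped that of the Cd8-marked cells. Clonotypes of Foxp3- Cd4+ cells were shared by 8 of 100 (3.52% to 15.2%) single-lineage dividing cells of WT and 2.35% (0.286 to 8.24) of those in VISTA-KO.

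The 3 largest clonotypes with dividing members in each library, counted over single-lineage Foxp3+ Cd4+ cells, are printed by their junctions, which show the clones that held dividing cells. All but VISTA-KO clonotype 2 also held non-dividing cells. Bases run from 5′ to 3′, and capitals mark the first and last codon of the junction, which starts at the conserved cysteine. WT clonotype 1 (TRAV6-6 and TRAJ13 with TRBV13-3 and TRBJ2-1) counted 21 cells, 4 of them dividing and 10 non-dividing. WT clonotype 2 (TRAV8-1 and TRAJ31 with TRBV3 and TRBJ2-1) counted 15 cells, 2 dividing and 10 non-dividing. WT clonotype 3 (TRAV9N-4 and TRAJ26) counted 14 cells, 3 dividing and 7 non-dividing, and had the same beta junction as clonotype 1. Of 35 cells with this beta chain, 34 held both alpha chains, and each cell was counted in 1 of the clonotypes 1 and 3. Together these held 7 dividing and 17 non-dividing cells.
WT clonotype 1, alpha: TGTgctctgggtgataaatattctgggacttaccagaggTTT
WT clonotype 3, alpha: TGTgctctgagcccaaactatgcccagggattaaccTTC
WT clonotypes 1 and 3, beta: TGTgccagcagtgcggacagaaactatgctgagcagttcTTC
WT clonotype 2, alpha: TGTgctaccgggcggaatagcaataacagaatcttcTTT
WT clonotype 2, beta: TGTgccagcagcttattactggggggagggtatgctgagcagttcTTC
VISTA-KO clonotype 1 (TRAV5D-4 and TRAJ6 with TRBV17 and TRBJ2-2) counted 7 cells, 1 dividing and 3 non-dividing. VISTA-KO clonotype 2 (TRAV6-5 and TRAJ18 with TRBV5 and TRBJ2-7) counted 4 cells, all 4 of them dividing. VISTA-KO clonotype 3 (TRAV12-2 and TRAJ7 with TRBV13-1 and TRBJ1-2) counted 3 cells, 1 dividing and 2 non-dividing.
VISTA-KO clonotype 1, alpha: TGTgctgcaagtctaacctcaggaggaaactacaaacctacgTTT
VISTA-KO clonotype 1, beta: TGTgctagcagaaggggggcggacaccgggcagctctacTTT
VISTA-KO clonotype 2, alpha: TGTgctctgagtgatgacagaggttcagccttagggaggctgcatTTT
VISTA-KO clonotype 2, beta: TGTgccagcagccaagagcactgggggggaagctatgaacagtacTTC
VISTA-KO clonotype 3, alpha: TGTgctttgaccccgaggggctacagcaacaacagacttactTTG
VISTA-KO clonotype 3, beta: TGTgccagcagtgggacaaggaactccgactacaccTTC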

How the data were processed

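CD4+ and CD8+ TILs from pooled B16 tumors (5 to 6 mice per genotype in the methods, 6 to 8 tumors in a legend) were loaded on 10x Genomics chips. The authors deposited unnormalized UMI counts, 1 matrix of genes by barcodes per library, from Cell Ranger 5.0.0 on mouse mm10, with filtered T cell receptor contigs and their deposited UMI counts. The labels name a 3′ kit and the methods a 5′ V(D)J kit; receptor libraries and label notes point to 5′ reads. Seurat 4 is named in the submitters' processing notes. Counts were summed over cells of a group, scaled to CPM and compared as log2 ratios with 5 CPM added (Python 3.11.15, numpy 2.4.6, scipy 1.17.1, pandas 2.3.3). Genes had to reach 20 CPM (dividing against non-dividing, 2-fold in both libraries) or 50 CPM (VISTA-KO against WT, 1.5-fold). An exact interval excluding 1 was required only for the 10 highest and lowest genotype ratios. Thinning drew UMIs without replacement with a fixed seed. Single-lineage cells, also thinned or matched for depth, were chosen after seeing the data. The members and gene lists were chosen with earlier results of these data known. Genes were named by rule: the rule's genes and Vsir, the 15 highest and lowest dividing ratios and the 15 highest off the cycle lists, the 10 highest and lowest genotype ratios, members of the lists, and the 3 largest clonotypes per library. Receptor gene segments were left out of gene rankings. Alternatives changed the depth, definition, doublet and low-value filters, pseudocount, centring and cell weights. With 1 sample per group, no test was run. Some genes that met these rules are not reported here.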

Additional observations from a re-analysis of the deposited data

Results flagged for a closer look

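Cd63, which encodes a membrane protein of lysosomes that melanoma cells hold in quantity, moved in opposite directions in the libraries. Its log2 ratio of dividing over non-dividing cells was -0.91 in WT and 4.17 in VISTA-KO over all members. The difference was not tested. Of the 316 Cd63 UMIs in dividing cells of VISTA-KO, 276 lay in 1 cell.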

How the results depend on the processing

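Each library's share of dividing cells moved under every alternative tried except 1, at least 1000 genes and under 10% mitochondrial UMIs, and the WT share stayed the higher in all. In WT and VISTA-KO, respectively, it was 4.55% and 2.96% at 2000 UMIs per cell, 13.9% and 7.97% at 4000 UMIs, 18.1% and 8.11% with both Mki67 and Top2a required, and 14.5% and 6.14% with at least 4 UMIs. Without cells marked as doublets (at least 2 Cd8 UMIs or 2 beta chains) it was 18.3% and 11.3%, in single-lineage cells 17.4% and 11.3%, and in single-lineage cells at 4000 UMIs 13.2% and 7.09%. The counting intervals overlapped at 2000 UMIs (2.87 to 6.80 and 1.70 to 4.77), where Foxp3 and Cd4 UMIs were required again after thinning.

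Against 175 genes at least 2-fold higher in dividing cells, the count was 115 with 20 CPM added, 88 with a minimum of 50 CPM and 271 with no filter. Against 1 gene lower, it was 9 with depth-matched cells, 3 with 1 CPM added, 0 with 20 CPM added, 0 with a minimum of 50 CPM, 2 with no filter, 18 without marked doublets, 13 with both genes required, 14 in single-lineage cells and 6 in depth-matched single-lineage cells. The depth match over all members fell short in WT, with non-dividing and dividing medians of 10244 and 18280 UMIs. In VISTA-KO these were 10632 and 11943 UMIs.

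Against 75 genes higher in VISTA-KO, the count was 147 with a minimum of 20 CPM, 387 with no filter, 128 with equal weight for each cell, 186 without marked doublets and 191 in single-lineage cells. Against 32 lower, it was 67, 190, 114 and 131 under the same settings but for equal weight. Filters change how many genes are counted; otherwise the cause was not tested.

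Direction was lost in single-lineage cells, on the log2 scale of VISTA-KO over WT, for Cd63 (-0.24), Dct (-0.52), Fabp5 (-0.38), Klrd1 (0.32), Pmel (-0.14), Prf1 (0.026) and Tyrp1 (-0.38). Ccl2 came to 0 in single-lineage cells and 0 without marked doublets, and Cox6a2 to 0 between dividing and non-dividing depth-matched single-lineage cells, for want of UMIs. Of 868 values of single genes and of list medians under alternatives, 606 moved little, 252 moved further and 10 reversed or came to 0.

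The share of dividing cells with a clonotype also found in non-dividing cells was 31.6% in WT and 14.2% in VISTA-KO over all members. Over the settings counted for all members and for single-lineage cells, which also varied the non-dividing cells used, it lay between 30.9% and 37.9% in WT and between 13.3% and 22.4% in VISTA-KO. No paired analysis was possible because each genotype had 1 library. Depth limits the rule itself, since shallow cells reach 2 UMIs less often, and no count here measures the spread between mice.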
